A study of Mus musculus with 30 samples.

Results

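The genes that carry acetyl-CoA to squalene, here called the mevalonate arm of cholesterol synthesis, were followed in cultured mouse fetal testes. The arm was taken as 9 genes listed by symbol and matched to the Ensembl identifiers of the count files: Acat2, Hmgcs1, Mvk, Pmvk, Mvd, Idi1, Fdps, Ggps1 and Fdft1. All 9 were found among the 49315 genes in the files, and all 9 were among the 19323 genes with enough counts to be tested. Testes of C57BL/6 fetuses at gestational day 14 were cleared of mesonephros and kept for 24 h on a culture insert. The medium held DMSO at the same dilution in every group, with ITS, BSA, Albumax and ascorbic acid among its supplements. The 30 libraries were 15 with vehicle only, 6 with 100 µM mono-(2-ethylhexyl) phthalate (MEHP), 5 with 1 µM all-trans retinoic acid (ATRA) and 4 with MEHP and ATRA together at those doses. MEHP is a phthalate monoester, the breakdown product through which a common plasticizer acts in the body, and ATRA is the form of vitamin A that activates retinoic acid receptors.

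Each sample title carries a pair of numbers that the labels do not explain. The second of them was between 416 and 465 in 18 libraries, called the lower range here, and between 525 and 599 in 12, called the upper range. The upper range held the 6 MEHP libraries with 6 of vehicle, and the lower range held every ATRA and MEHP + ATRA library with 9 of vehicle. Each treatment was therefore set against vehicle libraries of its own range.

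In this pathway acetyl-CoA units are joined into a branched precursor, mevalonate, which is phosphorylated and decarboxylated to the isoprene unit. Isoprene units are then joined head to tail into farnesyl diphosphate, from which squalene, the first committed sterol precursor, is made. Farnesyl diphosphate also leads to geranylgeranyl diphosphate, dolichol, ubiquinone and the lipid anchors of small GTPases. Genes of the pathway are classic targets of the SREBP transcription factors, which are released when membrane sterol is low, and in the fetal testis cholesterol is the starting material for steroid synthesis in Leydig cells.

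The sequence just upstream of the start is shown for 4 members, because most members rose with MEHP. Mvd had the largest change, Hmgcs1 and Acat2 open the pathway, and Ggps1 is the member with no called change. The windows hold the 250 bases before the RefSeq transcript start on the gene's own strand (RefSeq, GRCm38.p6), at chr8:122443423-122443672 on the minus strand for Mvd, chr13:119690101-119690350 on the plus strand for Hmgcs1, chr17:12960726-12960975 on the minus strand for Acat2 and chr13:14063489-14063738 on the minus strand for Ggps1. Capitals mark matches, on either strand, to TCACNCCAC, a form of the sterol regulatory element that SREBP binds, and to CCAAT, the element bound by NF-Y.
Mvd: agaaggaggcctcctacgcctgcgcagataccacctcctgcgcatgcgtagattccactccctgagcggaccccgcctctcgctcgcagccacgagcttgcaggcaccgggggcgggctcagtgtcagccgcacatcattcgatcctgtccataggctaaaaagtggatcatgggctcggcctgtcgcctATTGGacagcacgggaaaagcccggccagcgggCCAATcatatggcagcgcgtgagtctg
Hmgcs1: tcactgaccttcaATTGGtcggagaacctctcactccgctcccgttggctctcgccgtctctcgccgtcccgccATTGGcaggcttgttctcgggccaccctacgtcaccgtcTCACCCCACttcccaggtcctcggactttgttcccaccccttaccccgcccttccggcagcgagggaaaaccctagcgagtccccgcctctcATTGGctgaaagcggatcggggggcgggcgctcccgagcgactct
Acat2: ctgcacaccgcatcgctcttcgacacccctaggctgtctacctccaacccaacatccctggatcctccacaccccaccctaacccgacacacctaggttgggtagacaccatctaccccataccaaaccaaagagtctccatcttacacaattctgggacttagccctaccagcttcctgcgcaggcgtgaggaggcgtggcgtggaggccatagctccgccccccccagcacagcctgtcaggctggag
Ggps1: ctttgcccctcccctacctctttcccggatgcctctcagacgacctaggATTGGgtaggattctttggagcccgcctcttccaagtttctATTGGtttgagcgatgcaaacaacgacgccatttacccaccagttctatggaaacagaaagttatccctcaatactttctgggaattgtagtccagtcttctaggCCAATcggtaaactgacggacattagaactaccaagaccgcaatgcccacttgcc
RefSeq windows were found for 7 of the 9 genes, all but Fdps and Fdft1. They were 8 windows, as Pmvk had a further one, which held no match. TCACNCCAC occurred in 1 of the 8 windows, that of Hmgcs1, starting 137 bases before the start, against 1.05% of all 32851 windows of that length. CCAAT occurred in 6 of the 8 windows and 6 of the 7 genes, all but Acat2, against 33.85% of all windows. The Ggps1 window held 3 CCAAT matches, the Mvd window 2 and the Hmgcs1 window 3. CACGTG, an E-box that SREBP can also bind, occurred in 0 of the 8 windows and in 6.02% of all windows. No match overlapped a match to another motif, and a match is a run of letters, not a shown binding site.

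Libraries held 17551454 to 29306917 counts, and the mitochondrial share was 0.995% to 1.431%. No pair of libraries was identical. Members were well counted, from 425 counts for Idi1 in 1 vehicle library to 11905 for Hmgcs1 in 1 MEHP library. The labels do not tie a library to an animal or litter, and p-values therefore speak only for library-to-library spread, which may be technical. The RNA is from whole testis, so more cells of a type and more RNA per cell cannot be told apart. The strand setting of the counting is not given, which bears on genes that share exon bases with a neighbour. Fdft1 shares 767 exon bases, 26.8% of its own, with Ctsb on the opposite strand, and Ctsb, a cathepsin gene, had a log2 fold change of 0.05 with MEHP (adjusted p = 0.734). Ggps1 shares 170 bases, 7.2%, with Arid4b on the opposite strand (log2 fold change 0.02 with MEHP, adjusted p = 0.942). Fdps shares 1124 bases, 26.7%, with the clone gene Gm43738 on its own strand, which had a mean of 0.043 CPM (library-scaled counts).

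Levels between genes were compared as TPM, a share of all transcripts that divides counts by exon length, as mean ± SD. In the 6 upper-range vehicle libraries Hmgcs1, the cytosolic synthase that makes HMG-CoA, was the most abundant at 391 ± 50.8 TPM. Fdft1, squalene synthase, followed at 209 ± 12.4 TPM, and Mvd, the decarboxylase that yields the isoprene unit, at 149 ± 12.5 TPM. Acat2, the cytosolic thiolase of the first condensation, was at 120 ± 14.3 TPM, and Fdps, farnesyl diphosphate synthase, at 101 ± 12.5 TPM. The kinases were lower, Pmvk at 90.2 ± 7.45 TPM and Mvk at 76.0 ± 5.44 TPM. Ggps1, which makes geranylgeranyl diphosphate, was at 39.6 ± 5.93 TPM and Idi1, the isomerase of the isoprene unit, at 27.2 ± 4.22 TPM. Library ranges were separate between Hmgcs1 and Fdft1, Fdft1 and Mvd, and Mvk and Ggps1. All other neighbours in this order overlapped over libraries. With MEHP the mean TPM of Mvd, 290 ± 52.1, passed that of Fdft1, 251 ± 25.02, and with MEHP + ATRA Mvd was at 303 ± 11.8 and Fdft1 at 240 ± 11.5 TPM.

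MEHP raised listed genes from the entry of the arm, Acat2, to its end, Fdft1, with Ggps1 as the member that did not pass. The list does not cover every step to squalene, and Ggps1 lies on a side branch. Of the 9 genes 8 rose, 0 fell and 1 was not called, beside 2.88% of all genes tested that rose. The median log2 fold change of the 9 was 0.47, and that of all genes tested was -0.01. The rises ran from 1.21-fold for Fdft1 to 1.96-fold for Mvd. In the following, levels of a gene are CPM after library scaling, and folds are from edgeR's quasi-likelihood test with Benjamini-Hochberg adjustment over all genes tested. Whether groups overlapped was counted for the members only. The share of all genes without overlap is not known, so these statements describe the members and are no test.

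**Figure D1:**
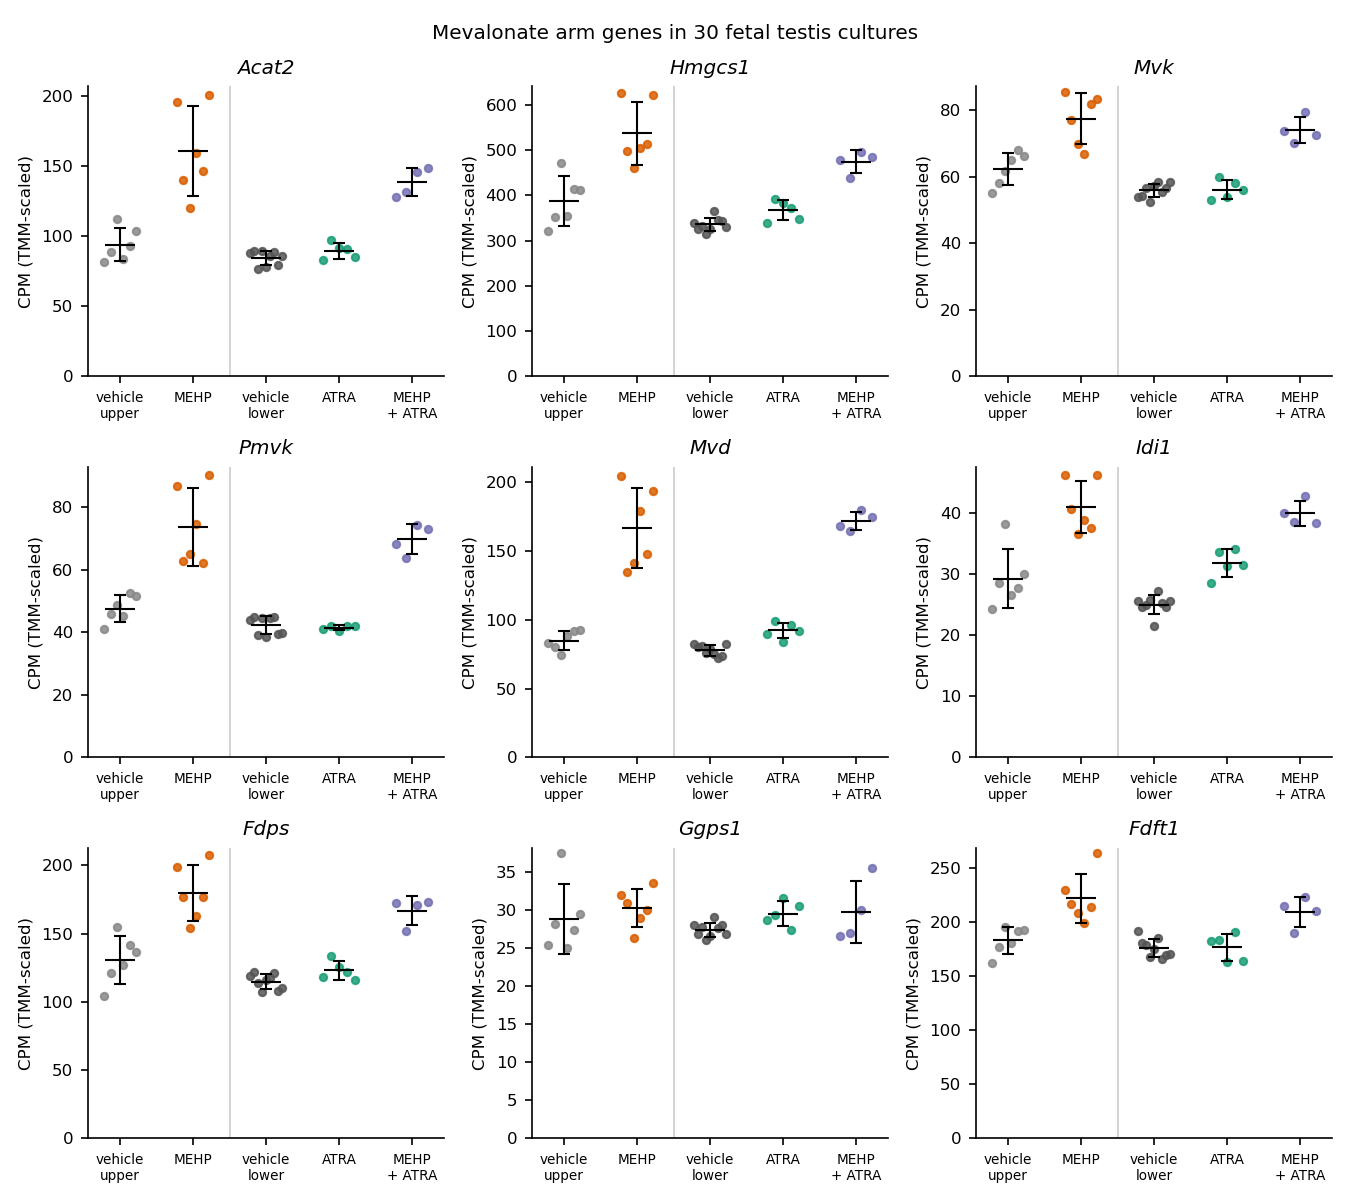
CPM of the 9 genes (y axis, from 0) in each of the 30 libraries, by group (x axis), with vehicle split by title range and a grey line between the ranges. Points are libraries and bars are mean ± SD. Mvd with MEHP (134.58 to 204.54 CPM) sits above all upper-range vehicle libraries, while Ggps1 overlaps in every group.

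At the entry of the pathway, Acat2 ran from 81.4 CPM through a median of 91.1 to 112 CPM in the 6 upper-range vehicle libraries. With MEHP it ran from 120 through 153 to 201 CPM. The groups did not overlap, and the rise was 0.77 ± 0.09 on the log2 scale (SE, adjusted p = 1.05e-06). Hmgcs1 was at 322, 383 and 473 CPM (lowest, median, highest) in vehicle and at 460, 509 and 626 CPM with MEHP. Here 5 of 6 MEHP libraries lay above every vehicle library, and the log2 rise was 0.47 ± 0.08 (adjusted p = 1.04e-04).

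Between mevalonate and the isoprene unit, the 3 enzymes rose by unequal amounts. Mvk, mevalonate kinase, had 55.2, 63.4 and 67.9 CPM (lowest, median, highest) in vehicle and 66.9, 79.4 and 85.7 CPM with MEHP. Only the lowest MEHP library reached into the vehicle range, and the log2 rise was the smallest of the 3, 0.31 ± 0.06 (adjusted p = 5.16e-04). Pmvk, phosphomevalonate kinase, went from 41.0, 47.2 and 52.5 CPM to 62.0, 69.6 and 90.2 CPM with no overlap, a log2 rise of 0.63 ± 0.08 (adjusted p = 1.81e-06). Mvd went from 74.3, 85.5 and 92.6 CPM to 135, 163 and 205 CPM. All 6 MEHP libraries lay above all vehicle libraries, and the log2 rise of 0.97 ± 0.08 (adjusted p = 5.40e-10) was the largest among the 9 genes.

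Idi1 was at 24.3, 28.1 and 38.2 CPM (lowest, median, highest) in vehicle and at 36.6, 39.7 and 46.3 CPM with MEHP. Vehicle replicate 6, at 38.2 CPM, was the library that overlapped, and the log2 rise was 0.49 ± 0.08 (adjusted p = 1.14e-04). Fdps had 104, 132 and 155 CPM in vehicle and 154, 177 and 208 CPM with MEHP. The overlap was again between vehicle replicate 6 and the lowest MEHP library, and the log2 rise was 0.46 ± 0.07 (adjusted p = 9.65e-05).

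Fdft1 and Ggps1 both use farnesyl diphosphate. Fdft1, the branch to sterols, was at 162, 186 and 196 CPM in vehicle and at 200, 216 and 264 CPM with MEHP. The groups did not overlap, and the log2 rise was 0.28 ± 0.06 (adjusted p = 0.00345). Ggps1, the branch to protein prenylation, was at 24.97, 27.8 and 37.4 CPM in vehicle and at 26.3, 30.4 and 33.6 CPM with MEHP. The MEHP libraries lay within the vehicle range, but that range reached 37.4 CPM only in replicate 6. The next highest vehicle library was at 29.4 CPM. The log2 fold change was 0.07 ± 0.08 with a 95% interval of -0.09 to 0.23 (adjusted p = 0.766). Without 1 library the estimate ran from 0.036 to 0.17.

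**Figure D2:**
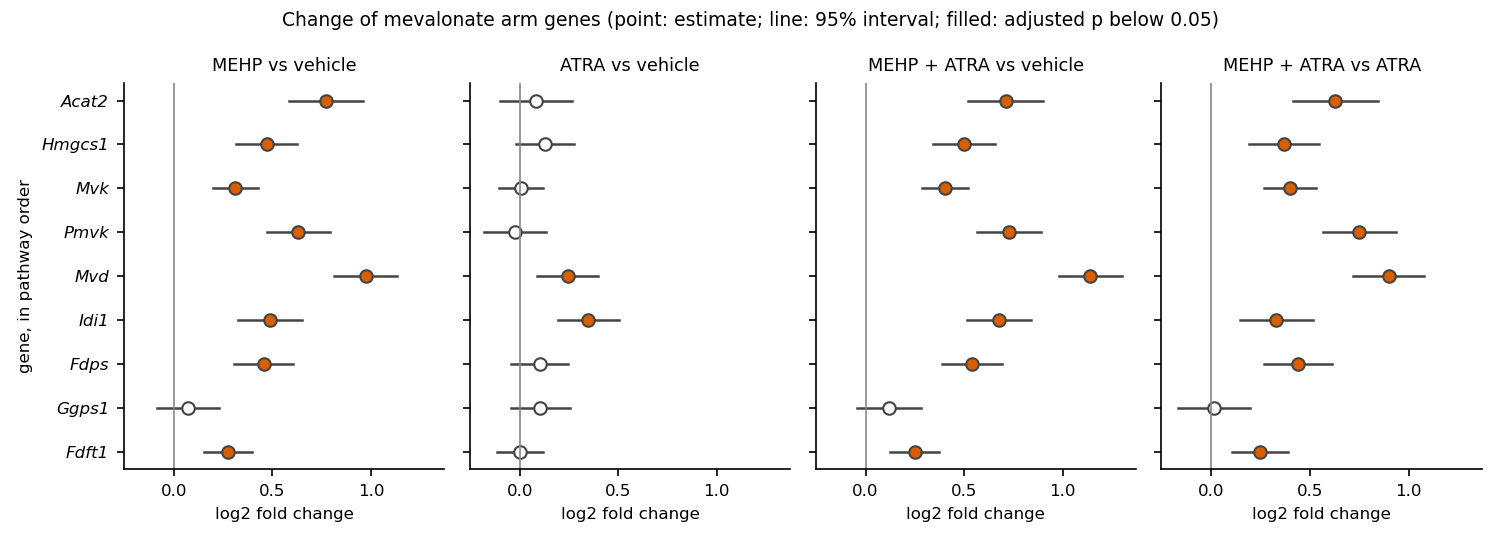
Log2 fold change (x axis) of each gene in pathway order (y axis) in 4 comparisons. Points are estimates, lines are 95% intervals, and filled points passed an adjusted p of 0.05 in edgeR's test; Mvd with MEHP + ATRA is the highest point at 1.14 and Ggps1 is open in all 4 panels.

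ATRA left most of the arm without a called change. Idi1 and Mvd rose, 2 of 9, with 0 lower and 7 not called, beside 9.06% of all genes tested that rose. The median log2 fold change of the 9 was 0.10, and that of all genes rounded to 0. Idi1 was at 28.5, 33.6, 31.3, 34.0 and 31.5 CPM in the 5 ATRA libraries, all above the 9 lower-range vehicle libraries, which ran from 21.5 through 25.3 to 27.1 CPM. Its log2 rise was 0.35 ± 0.08 (adjusted p = 9.85e-04). Mvd was at 89.9, 99.0, 84.1, 96.0 and 92.2 CPM with ATRA and at 72.1, 79.0 and 82.8 CPM (lowest, median, highest) in vehicle. The groups did not overlap, and the log2 rise was 0.24 ± 0.07 (adjusted p = 0.02). The Mvd call was lost without ATRA replicate 2 (adjusted p = 0.077) or ATRA replicate 4 (adjusted p = 0.0576), which leaves 1 of 9 called in those fits.

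The other 7 genes had log2 fold changes with ATRA from -0.02 for Pmvk to 0.13 for Hmgcs1. Hmgcs1 was at 340, 393, 383, 373 and 349 CPM with ATRA and at 314, 333 and 367 CPM (lowest, median, highest) in vehicle. The groups overlapped (log2 fold change 0.13 ± 0.07, adjusted p = 0.256). Pmvk was nearly level across the ATRA libraries at 40.9, 41.8, 40.5, 42.0 and 42.0 CPM, inside the vehicle range of 38.5 to 44.9 CPM. Acat2, Fdps and Ggps1 had log2 fold changes of 0.08 ± 0.09, 0.10 ± 0.07 and 0.11 ± 0.07. Mvk and Fdft1 were at 0.01 ± 0.05 and 0.00 ± 0.06, with 95% intervals of -0.11 to 0.12 and -0.11 to 0.12.

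With MEHP + ATRA 8 of 9 genes rose against vehicle, 0 fell, and Ggps1 was again the member not called. The share of all genes tested that rose was 14.3%. The 9 genes had a median log2 fold change of 0.54, beside -0.01 over all genes. The comparisons with ATRA and with MEHP + ATRA share the 9 lower-range vehicle libraries. Mvd was at 169, 164, 180 and 175 CPM in the 4 co-exposed libraries, above all lower-range vehicle libraries. Its log2 rise of 1.14 ± 0.08 (adjusted p = 5.33e-13) was the largest estimate for a member in any comparison. Acat2 was at 128, 132, 146 and 149 CPM, against 76.9, 86.2 and 89.4 CPM (lowest, median, highest) in vehicle, a log2 rise of 0.71 ± 0.09 (adjusted p = 3.72e-07).

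Pmvk, at 68.3, 63.6, 74.2 and 72.9 CPM, rose by 0.73 ± 0.08 on the log2 scale (adjusted p = 1.26e-08). Idi1, at 40.0, 38.5, 42.7 and 38.4 CPM, rose by 0.68 ± 0.08 (adjusted p = 5.44e-08). Both groups of co-exposed values lay above all vehicle values. Fdps, at 172, 152, 171 and 173 CPM, rose by 0.54 ± 0.07 (adjusted p = 8.38e-07), from 107, 116 and 122 CPM (lowest, median, highest) in vehicle. Hmgcs1, at 479, 438, 497 and 485 CPM, rose by 0.50 ± 0.08 (adjusted p = 5.66e-06), and Mvk, at 73.7, 70.1, 79.4 and 72.7 CPM, by 0.40 ± 0.06 (adjusted p = 1.80e-06). For these 3 genes, too, no co-exposed library fell into the vehicle range.

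At the end of the arm, Fdft1 was at 215, 190, 224 and 210 CPM with MEHP + ATRA and at 166, 175 and 192 CPM (lowest, median, highest) in vehicle. Replicate 2, at 190 CPM, lay just inside the vehicle range, and the log2 rise was 0.25 ± 0.06 (adjusted p = 0.00193). Ggps1 was at 26.5, 27.0, 29.99 and 35.4 CPM against 26.1, 27.6 and 29.0 CPM in vehicle. The groups overlapped, and the log2 fold change was 0.12 ± 0.08 with a 95% interval of -0.05 to 0.28 (adjusted p = 0.299).

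Set against ATRA alone, adding MEHP raised 8 of 9 genes and lowered 0, beside 1.62% of all genes tested that rose. Both groups were in the lower range. The log2 rises were 0.90 ± 0.09 for Mvd, 0.75 ± 0.09 for Pmvk, 0.63 ± 0.11 for Acat2, 0.44 ± 0.08 for Fdps, 0.40 ± 0.07 for Mvk and 0.37 ± 0.09 for Hmgcs1. For each of these 6 genes all 4 co-exposed libraries lay above all 5 ATRA libraries, with adjusted p-values from 1.74e-07 for Mvd to 0.0127 for Hmgcs1. Idi1 rose by 0.33 ± 0.09 (adjusted p = 0.0364), with groups that did not overlap, and Fdft1 by 0.25 ± 0.07 (adjusted p = 0.0421), with groups that did. These last calls rested on few libraries: that of Idi1 was lost in 6 and that of Fdft1 in 8 of 30 fits without 1 library. Both were lost without ATRA replicates 1, 3 or 5 or MEHP + ATRA replicates 1, 3 or 4, with adjusted p-values up to 0.13 for Idi1 and 0.153 for Fdft1. The Fdft1 call was also lost without ATRA replicate 2 (adjusted p = 0.0516) or vehicle replicate 2 (adjusted p = 0.0506).

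ATRA added to MEHP gave no called change. In edgeR's test of MEHP + ATRA against MEHP, 0 of 9 genes were called and 0 had an unadjusted p below 0.05. DESeq2 and limma-voom each called 0. Over all genes edgeR called 1601 of 19323, 784 higher (4.06%) and 817 lower. DESeq2 called 1829 of 20002 genes and limma-voom 2040 of 19323. At such shares 0 of 9 is near that of all genes and is no result about the members. Log2 fold changes ran from -0.06 ± 0.13 for Acat2 to 0.19 ± 0.11 for Idi1. These groups are in different title ranges and were linked through vehicle, which widens the intervals. For Idi1 the 95% interval was -0.04 to 0.42.

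The test of whether the MEHP effect differed with ATRA present likewise called 0 of 9 genes (edgeR), with 0 at an unadjusted p below 0.05 and 0 by DESeq2 and by limma-voom. In the same edgeR test 2 of all 19323 genes (0.0104%) were called in the positive direction and 4 in the negative. With so few calls over all genes, 0 of 9 tells nothing particular about the members. The estimates ran from -0.16 ± 0.12 for Idi1 to 0.12 ± 0.12 for Pmvk on the log2 scale. The 95% interval for Idi1 was -0.40 to 0.09 and that for Pmvk -0.12 to 0.36, so they span differences of those sizes.

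Vehicle libraries themselves were not level. All 9 genes had higher estimates in upper-range than in lower-range vehicle, from 0.06 ± 0.05 for Fdft1 to 0.23 ± 0.07 for Idi1 on the log2 scale. No member was called in edgeR's test (0 of 9, with 5 at an unadjusted p below 0.05, and 0 by DESeq2 and by limma-voom). Of all 19323 genes edgeR called 49 higher (0.254%) and 23 lower in the upper range, so 0 of 9 is near the share of all genes. Spread was also wider in the upper range. The SD of Hmgcs1 was 55.1 CPM over the 6 upper-range vehicle libraries and 15.2 CPM over the 9 lower-range ones, and the SD of Fdps was 17.7 and 5.48 CPM.

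Part of the spread in the upper range went with the first title number, which vehicle and MEHP libraries share. With MEHP, the libraries of the highest first number (replicates 1 and 6) were the highest pair for 9 of 9 genes. In upper-range vehicle, the libraries of the highest first number (replicates 6 and 14) were the highest pair for only 4 of 9 genes. Replicate 6 by itself was the highest library for 6 of 9 genes, but for Mvd it was the lowest at 74.3 CPM. Vehicle replicate 3 was the lowest for 7 of 9. In the lower range the vehicle libraries of the highest first number (replicates 13 and 15) were not high: their mean z-scores over the 9 genes were -0.91 and -0.85, within the vehicle span of -0.98 to -0.53.

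Differences taken within a first number and range kept the direction of the comparison with MEHP. MEHP minus vehicle was above 0 in 4 of 4 first numbers for 8 genes and in 3 of 4 for Ggps1. For Mvd the difference in mean log2 CPM was 0.68, 0.93, 0.69 and 1.26 at the 4 first numbers in ascending order. For Hmgcs1 it was 0.38, 0.57, 0.31 and 0.50 in the same order. MEHP + ATRA minus vehicle was above 0 in 3 of 3 first numbers for 8 genes and in 2 of 3 for Ggps1. With ATRA alone, Mvd and Idi1 were above 0 in 4 of 4 first numbers, Mvd between 0.22 and 0.25 and Idi1 between 0.17 and 0.45. The other 7 genes were above 0 in 2 or 3 of 4.

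**Figure D3:**
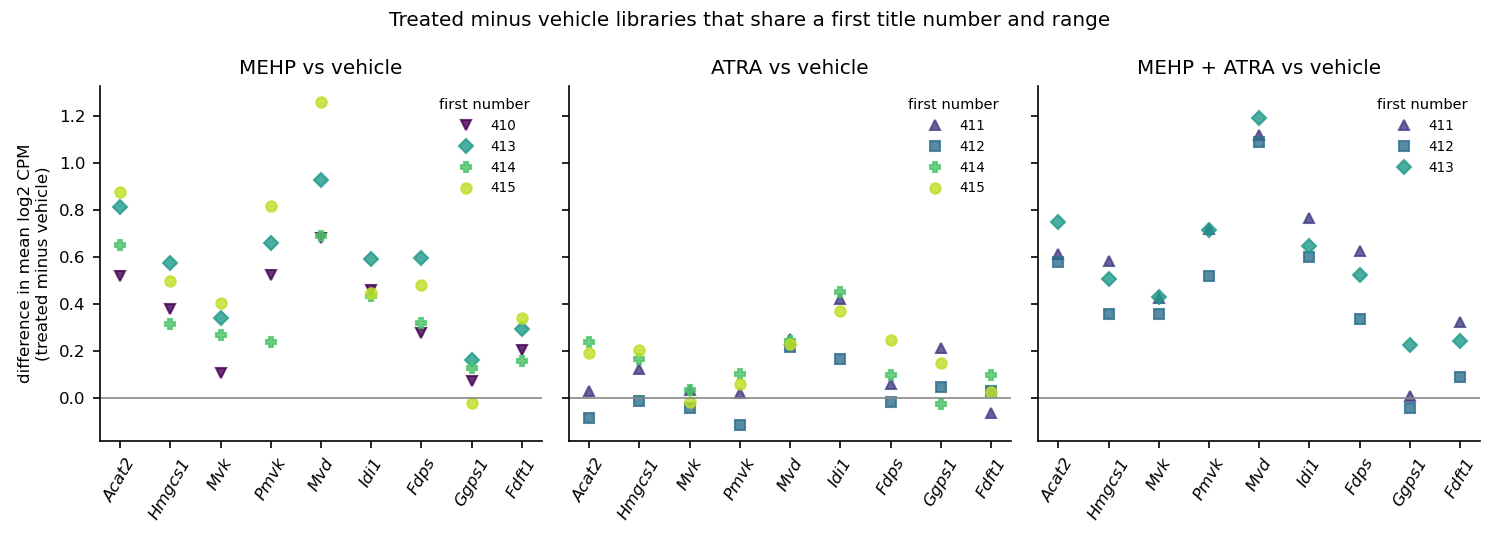
Treated minus vehicle difference in mean log2 CPM (y axis) for each gene (x axis), with 1 symbol per first title number. The Mvd differences with MEHP reach from 0.68 to 1.26, and Ggps1 is the only gene below 0 in the panels with MEHP, at -0.02 and -0.04.

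The members also rose and fell together from library to library. After the mean of each group was removed, the median Pearson r of log2 CPM over the 36 pairs of genes was 0.65 across 30 libraries, which share depth, culture and title number within a library. Hmgcs1 and Fdps were the closest pair (r = 0.90), and Acat2 ran with Hmgcs1 (r = 0.83) and Pmvk (r = 0.83). Mvd, the gene with the largest MEHP change, followed the others least, with a median r of 0.41 and r = 0.01 with Ggps1 (0.015 before rounding). Ggps1 followed Hmgcs1 (r = 0.72) and Acat2 (r = 0.67) in these deviations although its group means differed little.

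**Figure D4:**
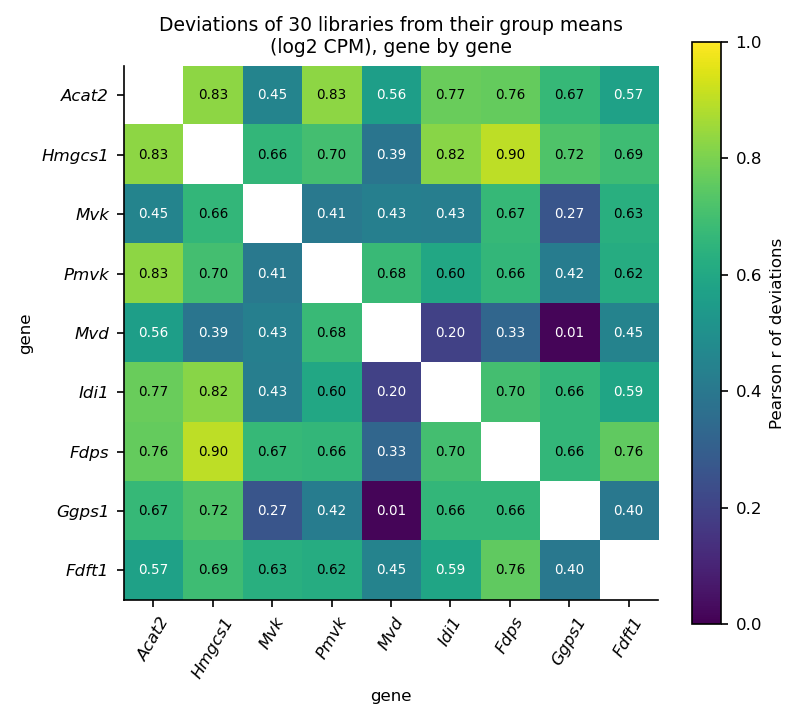
Pearson r between genes of their log2 CPM deviations from group means over 30 libraries, by colour and number. Hmgcs1 with Fdps is the highest cell (0.90), and the Mvd row holds the lowest (0.01 with Ggps1).

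Over all 30 libraries with the groups left in, each of 8 genes had an r of 0.89 to 0.98 with the mean of the other members, and Ggps1 had 0.50. The genes outside the arm most like its mean z-score were Cyp51 (r = 0.987), Nsdhl (r = 0.985) and Sqle (r = 0.985), enzymes of the later sterol steps. Stard4, a cytosolic sterol carrier, had r = 0.971, Msmo1 0.967, Hsd17b7 0.962 and Lss 0.951. Elovl6, a fatty acid elongase, followed at 0.949. Of these 8 genes, 6 were on the list of squalene to cholesterol enzymes. Their log2 fold changes with MEHP ran from 0.36 ± 0.07 for Hsd17b7 to 0.68 ± 0.08 for Lss. Group differences enter these r values, so a rise with MEHP follows from the choice of the genes and supports nothing, and the r values are descriptions.

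Flow through the branches at farnesyl diphosphate was not measured. The log2 ratio of Fdft1 to Ggps1 per exon length was taken within each library and compares mRNA only. It was 2.60 ± 0.0861 (SD, n = 6) with MEHP and 2.41 ± 0.164 (n = 6) in upper-range vehicle. The difference of 0.19 had an exact two-sided permutation p of 0.0238 over 924 arrangements, and 0.0714 after adjustment over the 3 treatments. ATRA gave 2.31 ± 0.18 (n = 5) against 2.41 ± 0.0612 (n = 9), a difference of -0.10 (exact permutation p = 0.139, adjusted p = 0.139). MEHP + ATRA gave 2.55 ± 0.191 (n = 4) against the same 9, a difference of 0.14 (exact permutation p = 0.0559, adjusted p = 0.0839). None of the 3 passed after adjustment, and the groups overlapped in each. In the MEHP + ATRA comparison replicate 4, the library with the highest Ggps1, decided the value: without it the difference was 0.23 (exact permutation p = 0.0136). Without MEHP + ATRA replicate 1 it was 0.08, and the ATRA difference was -0.16 without ATRA replicate 4 and -0.05 without ATRA replicate 3.

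The genes around the arm were counted from lists. Upstream of it, Acss2, which makes acetyl-CoA from acetate, and Acly, which makes it from citrate, rose with MEHP by 0.91 ± 0.07 and 0.35 ± 0.05 on the log2 scale (2 of 3 genes of acetyl-CoA supply, adjusted p = 2.65e-10 and 5.44e-05). Acss2 alone of this pair rose with ATRA (0.28 ± 0.07, adjusted p = 0.00238), where the citrate carrier Slc25a1 was the other of 2 genes called (0.18 ± 0.06, adjusted p = 0.0445). With MEHP + ATRA 3 of 3 rose, Acss2 by 1.00 ± 0.07 (adjusted p = 6.97e-13). Downstream, 10 of 12 squalene to cholesterol enzymes rose with MEHP and 0 fell, 3 of 12 with ATRA and 11 of 12 with MEHP + ATRA, beside 2.88%, 9.06% and 14.3% of all genes tested that rose. Their median log2 fold changes were 0.50, 0.12 and 0.62, beside 0.47, 0.10 and 0.54 for the arm itself.

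Of these downstream enzymes with MEHP, Lss, which closes squalene epoxide into the first sterol, rose by 0.68 ± 0.08 (adjusted p = 1.31e-06). Sc5d, a late desaturase, rose by 0.69 ± 0.08 (adjusted p = 1.03e-06), Tm7sf2, a sterol reductase, by 0.74 ± 0.10 (adjusted p = 1.18e-05) and Nsdhl by 0.63 ± 0.09 (adjusted p = 1.87e-05). Among those called with ATRA were Lbr (0.27 ± 0.07, adjusted p = 0.00285) and Sc5d (0.24 ± 0.08, adjusted p = 0.0273).

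The list of sterol sensing and transport held 8 genes. With MEHP 2 of 8 rose and 0 fell, beside 2.88% of all genes that rose: Stard4 by 0.61 ± 0.08 (adjusted p = 2.70e-06) and Insig1, which holds SREBP back and is itself an SREBP target, by 0.42 ± 0.07 (adjusted p = 1.26e-04). None of the 8 was called with ATRA in edgeR's test, 0 at an unadjusted p below 0.05, beside 9.06% of all genes that rose and 9.03% that fell. With MEHP + ATRA 5 of 8 rose, beside 14.3% of all genes, among them Srebf2, the SREBP gene most tied to cholesterol synthesis, by 0.37 ± 0.07 (adjusted p = 1.93e-04), and Insig2 by 0.30 ± 0.06 (adjusted p = 7.87e-05).

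Genes that use isoprenoids outside the sterol route, among them the prenyltransferases and the enzymes of dolichol and ubiquinone synthesis, were mostly not called. With MEHP 0 of 13 were called by edgeR, beside 2.88% of all genes tested that rose and 1.84% that fell. At those shares few calls among 13 genes would stand out. In the same test 2 had an unadjusted p below 0.05, and the median log2 fold change was 0.02. With ATRA 0 of 13 were called, again 2 unadjusted, with a median of 0.02, beside 9.06% of all genes that rose and 9.03% that fell. With MEHP + ATRA 3 of 13 rose, near the 14.3% of all genes that did: Fntb, a farnesyltransferase subunit, by 0.22 ± 0.07 (adjusted p = 0.0105), the protease Zmpste24 by 0.21 ± 0.06 (adjusted p = 0.00843) and the methyltransferase Icmt by 0.11 ± 0.04 (adjusted p = 0.0201).

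**Figure D5:**
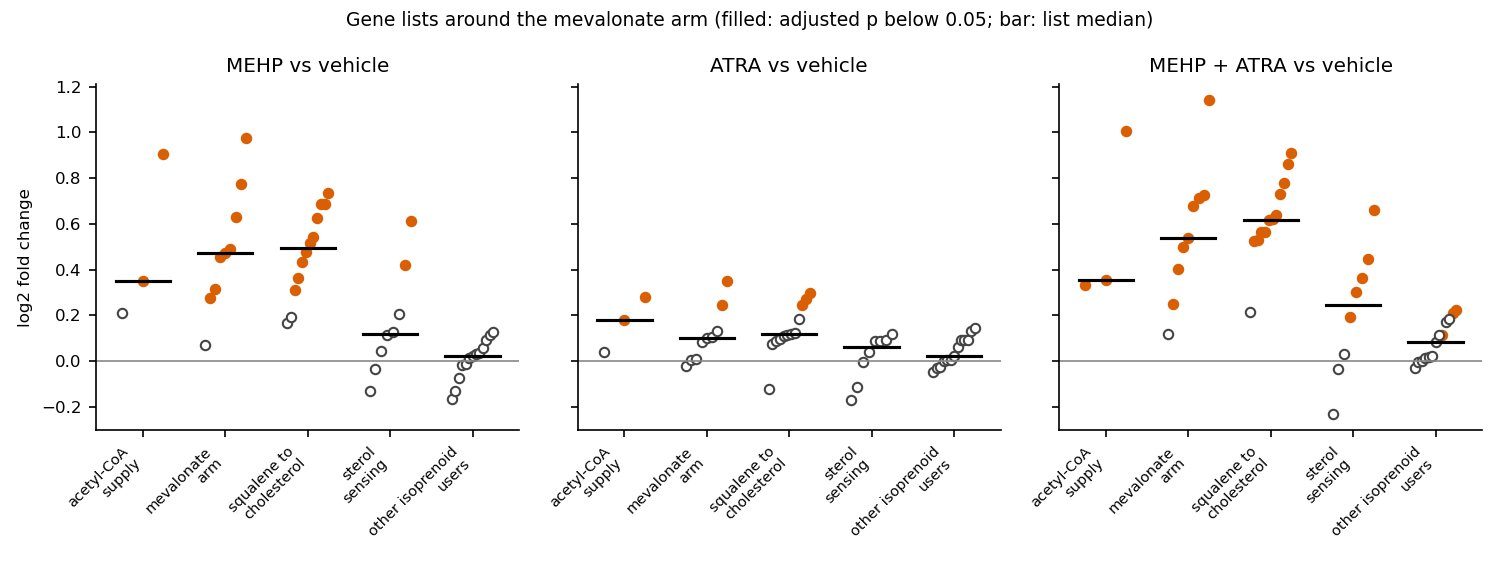
Log2 fold change (y axis) of each tested gene in 5 lists (x axis) for the 3 treatments against vehicle. Filled points passed an adjusted p of 0.05, open points did not, and bars are list medians; with MEHP the bars are at 0.47 for the mevalonate arm, 0.50 for the squalene to cholesterol enzymes and 0.02 for other isoprenoid users.

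Of the 3 tested genes on the list of mitochondrial or paralogous counterparts, 2 rose and 1 fell with MEHP, 0 rose and 1 fell with ATRA, and 1 rose and 1 fell with MEHP + ATRA. In the same order, 2.88%, 9.06% and 14.3% of all genes tested rose, and 1.84%, 9.03% and 14.7% fell. The gene that fell with each treatment was Acat1, the mitochondrial isoenzyme of Acat2. It ran from 152 through 165 to 182 CPM in upper-range vehicle and from 133 through 148 to 156 CPM with MEHP. The groups overlapped, and Acat1 fell with MEHP by 0.19 on the log2 scale (SE 0.05, adjusted p = 0.0346). With ATRA it fell by 0.38 (SE 0.05, adjusted p = 1.47e-06), and with MEHP + ATRA by 0.42 (SE 0.06, adjusted p = 4.95e-07). Idi2, the paralogue of Idi1, was at or near 0 counts in every group, at most 0.0888 CPM, and was not tested.

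Cell type markers were counted beside the share of all genes tested that fell, which was 1.84% in MEHP, 9.03% in ATRA and 14.7% in co-exposed libraries, and the shares that rose given above. The 6 Leydig markers (Star, Cyp11a1, Cyp17a1, Hsd3b1, Insl3 and Lhcgr) had 0 calls with MEHP in edgeR's test, and their summed level was 1523 to 2451 CPM in upper-range vehicle and 1524 to 2264 CPM with MEHP. In each of the other treatments 1 of 6 rose. Sertoli markers were present throughout (1363 to 2887 CPM summed over all libraries of all groups), with 2 of 7 higher and 1 of 7 lower with MEHP, and 4 higher and 2 lower both with ATRA and in the co-exposure. Of 5 endothelial markers 3 rose with MEHP, and their sum was 145 to 236 CPM in upper-range vehicle and 152 to 266 CPM with MEHP. With ATRA 1 of 5 rose, and in the co-exposure 1 rose and 1 fell. Of 3 granulosa cell markers 1 rose with MEHP (57.7 to 74.7 CPM summed in vehicle, 82.9 to 124 CPM with MEHP) and 2 with ATRA (66.6 to 90.2 CPM in vehicle, 198 to 235 CPM with ATRA). The granulosa markers did not move as one. Their lowest estimate was -0.70 with MEHP, -0.35 with ATRA and -0.69 in the co-exposure on the log2 scale, not called in any.

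Interstitial progenitor markers were lower with ATRA, 2 of 4 called, from 1835 to 1976 CPM summed in vehicle to 1419 to 1573 CPM. Mesonephric and epithelial markers were higher with ATRA, 2 of 4 called, from 32.0 to 49.7 CPM to 49.3 to 72.0 CPM. With MEHP + ATRA 2 of 4 interstitial progenitor markers were lower, 2 of 4 mesonephric and epithelial markers and 2 of 3 granulosa markers higher. Of 4 peritubular and smooth muscle markers, Myh11 was lower with MEHP (-0.30 ± 0.08 on the log2 scale, adjusted p = 0.0186), Tagln with ATRA and both in the co-exposure. Their sum was 244 to 358 CPM in upper-range vehicle, 231 to 272 CPM with MEHP, 260 to 356 CPM in lower-range vehicle, 294 to 340 CPM with ATRA and 249 to 317 CPM in the co-exposure. Of 5 germ cell markers none was called with MEHP or ATRA, all 5 had estimates below 0 with MEHP (355 to 606 CPM summed in vehicle, 302 to 545 CPM with MEHP), and Dppa3 was lower in the co-exposure. Macrophage and erythroid markers had 0 calls in the 3 treatments by edgeR, with 1 macrophage marker at an unadjusted p below 0.05 under ATRA. The part of these cell type markers in the changes of the mevalonate arm was not tested. Of 2 tested markers of adult liver 1 was lower in the co-exposure, and the 3 listed summed to 0.448 to 2.53 CPM in all libraries.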

How the data were processed

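RNA from 30 cultures was sequenced after oligo(dT) enrichment. The authors deposited a table of raw gene counts for each library, with featureCounts columns per the file headers. The submitters' processing notes name STAR 2.5.2b, Subread 1.5.2 with featureCounts, Trimmomatic 0.36, bcl2fastq 2.20 and DESeq2. No source used here gives the genome build, annotation release or strand setting. Symbols covered 99.3% of identifiers, and 91.44% of genes, 6 of the 9 members among them, had the same start and end as in GENCODE M21 (GRCm38).

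Groups came from the treatment labels. Counts were fitted with edgeR 4.0.16 in R 4.3.3: filterByExpr at a minimum count of 10, TMM scaling (factors 0.975 to 1.023) and 1 quasi-likelihood model of group and title range over 30 libraries, with 25 residual degrees of freedom and a common biological coefficient of variation of 12.7%. Tests were two-sided, Benjamini-Hochberg adjusted over the 19323 genes tested, at a threshold of 0.05. Standard errors were derived from the F statistic. CPM is scaled by TMM, and TPM divides by the exon length in the files. The model was tested on simulated data. Alternatives were RLE factors, DESeq2 1.42.0, limma-voom (limma 3.58.1) with weights, other count filters, no range term, only the libraries of the range compared, blocks on the first title number, and leaving out each library.

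In the upper range, vehicle and MEHP libraries that share a first title number deviated together across genes, with correlations of deviations from 0.346 to 0.648 in 4 of 4 first numbers. The number was treated as pairing them only in the differences within a first number, the blocked fits and the paired ratio. The main fit and the main permutation tests of the ratio did not use the pairing. The pairing comes from the titles, whose numbers are not explained.

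Members and lists were chosen with earlier results of these data known. Named were all 9 members, up to 4 called genes with the smallest adjusted p from each other list and comparison, and the 8 other genes with a proper symbol (no clone names) and a mean log2 CPM of at least 1 whose log2 CPM had the highest r with the members' mean z-score; some genes that these rules take are not reported here. Some isoenzymes, neighbours that share exon bases and cell type markers were named from lists as well.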

Additional observations from a re-analysis of the deposited data

Results flagged for a closer look

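In 3 of 45 groups of values (9 genes in 5 groups) a library stood apart from the rest of its group by Dixon's criterion, which chance meets in about 1 in 20 groups. Idi1 in lower-range vehicle was lowest in replicate 8, at 21.461 CPM, where the other 8 libraries were close together. Fdps with MEHP + ATRA was lowest in replicate 2, at 151.58 CPM. Ggps1 in upper-range vehicle was highest in replicate 6, at 37.444 CPM, the library that was also highest for 5 other members and lowest for Mvd.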

How the results depend on the processing

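Of 1630 alternative values of 42 changes of single members (all 9 in each treatment against vehicle and in MEHP + ATRA against ATRA, and the extremes of the other comparisons), 1583 kept their direction and side of the threshold, 21 lost a call, 3 gained one and 23 changed sign without being called. The count of members that rose stayed at 8 with MEHP under all settings and at 8 or 9 with MEHP + ATRA. Against ATRA it was 6 with no filter on low counts, 7 without the range term, and 6 to 8 without 1 library. With ATRA 2 became 1 without the range term, 3 in the lower range alone or with limma-voom (Hmgcs1 added), and 1 to 2 without 1 library; the cause was not tested. Over all genes, MEHP calls numbered 912, against 2229 without the range term and 439 in the upper range alone. Adjusted p-values of members with MEHP were larger in some settings. The highest over the edgeR, DESeq2 and limma-voom alternatives was 1.71e-04 for Mvd, 0.00268 for Acat2 and 0.0407 for Fdft1.

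Changes of sign were all in small values. With ATRA, Mvk was at -0.059 without the range term, -0.027 with a block on the first number over all libraries and -0.020 to 0.024 without 1 library. Fdft1 was at -0.020, -0.017 and -0.025 to 0.028 in the same order, and Pmvk at 0.021 with the block within range. Against ATRA, Ggps1 was at -0.045 with the block within range and -0.078 to 0.074 without 1 library. Against MEHP, Idi1 was at -0.038 without the range term and Acat2 at -0.13 to 0.012 without 1 library.

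With the replicate block within range, the count was 8 with MEHP, 2 with ATRA, 8 with MEHP + ATRA and 7 against ATRA (Fdft1 0.21, adjusted p = 0.0906); it changed no other call. In the lower range first numbers correlated above 0.1 in 3 of 4 with ATRA and 1 of 3 with MEHP + ATRA, so they count there as shared numbers only. The paired Fdft1 to Ggps1 ratio differed by 0.16 for MEHP, -0.07 for ATRA and 0.15 for the co-exposure, where the smallest exact p is 0.125, 0.125 and 0.25. With all 15 vehicle libraries, which mixes both title ranges, the MEHP ratio difference was 0.19 (exact permutation p adjusted to 0.00155). Against upper-range vehicle alone the exact permutation p was adjusted to 0.0714. Against vehicle of the same range and without 1 library, the difference ran from 0.13 to 0.23 with MEHP, from -0.16 to -0.049 with ATRA and from 0.077 to 0.23 with MEHP + ATRA. Every member had over 400 counts in each library.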
